A study of Mus musculus with 16 samples.

Results

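A group of 10 genes of macrophages and other leukocytes was followed in whole mouse embryos, out of the 26411 genes counted: *Mrc1*, *Itgal*, *Ptprc*, *Csf1r*, *Cx3cr1*, *Adgre1*, *Cd68*, *Fcgr3*, *Tyrobp* and *C1qa*. The group was chosen by measured values of these embryos: *Mrc1* and *Itgal* had more counts without the histone acetyltransferase KAT6A (*Kat6a*–/–*Kat6b*+/+) than with it (*Kat6a*+/+*Kat6b*+/+), and other genes of the same cells were joined to them. That contrast is therefore given as a description: no p is given for a member, and nothing is read from the count past the threshold. The study asked whether an excess of the paralogue KAT6B can stand in for missing KAT6A, and it sequenced RNA from 16 single whole embryos at E9.5, 4 of each of 4 genotypes. The wild-type controls were *Kat6a*+/+*Kat6b*+/+. The KAT6A-null embryos (*Kat6a*–/–*Kat6b*+/+) were homozygous for a germline null allele that lacks internal exons, the transgenic embryos (*Kat6a*+/+*Tg(Kat6b)*) carried a *Kat6b* transgene, and the null transgenic embryos (*Kat6a*–/–*Tg(Kat6b)*) had both. The transgene is a bacterial artificial chromosome with the whole *Kat6b* gene, and sequence on both sides of it, inserted as several copies in a line from 1 founder. All mice had an FVB x BALB/c hybrid background.

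The first macrophages of the mouse arise in the yolk sac, before haematopoietic stem cells exist, and reach the embryo with the circulation. They depend on the growth factor receptor CSF1R and the transcription factor PU.1, they clear dying cells, and they are the source of microglia and of part of the tissue macrophages of later stages. At E9.5 they are a small part of an embryo, and their RNA is diluted by that of all other cells.

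No cells were sorted, so "macrophage" here names genes and not purified cells. In bulk samples fewer cells of a type and less RNA per cell cannot be told apart. Each embryo had 14407277 to 45665680 counts in all, and 15679 genes passed the filter on low counts. *Kat6b* lay between 42.6 and 51.0 CPM (counts scaled to library size, with edgeR's TMM factors) in the 8 embryos without the transgene and between 155 and 227 CPM in the 8 with it. *Kat6a* lay between 176 and 211 CPM in wild-type and between 189 and 218 CPM in KAT6A-null embryos. The count over the whole gene includes exons outside the deleted part and therefore checks nothing. Each KAT6A-null litter also held 1 wild-type embryo of the 4 and no embryo with the transgene. The 2 litters of the null transgenic embryos held no other genotype, so for this genotype litter and genotype cannot be told apart. Among KAT6A-null embryos, 1 litter gave the 2 females and the other the 2 males.

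*Mrc1* encodes the mannose receptor CD206, an endocytic receptor of tissue macrophages that some endothelial cells also make, and lies on chromosome 2 of GRCm39 from 14234151 to 14336926. *Itgal* encodes the alpha chain of the integrin LFA-1, which leukocytes use to adhere to other cells, and lies on chromosome 7 from 126895432 to 126934320. *Adgre1* encodes F4/80, the surface receptor by which mouse macrophages are most often stained. The 150 bases before the annotated start of *Mrc1* and *Itgal*, the genes by which the group was chosen, are shown because each holds the purine-rich letters GAGGAAG, or CTTCCTC on the other strand, of the kind that PU.1 and related factors bind. The letters are in capitals, and the bases come from GRCm39 with the starts of the GENCODE annotation, plus strand.

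Mrc1, chr2:14234001-14234150: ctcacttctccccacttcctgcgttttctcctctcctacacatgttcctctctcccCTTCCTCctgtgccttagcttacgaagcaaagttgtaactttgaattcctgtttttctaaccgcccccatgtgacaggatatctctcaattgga
Itgal, chr7:126895282-126895431: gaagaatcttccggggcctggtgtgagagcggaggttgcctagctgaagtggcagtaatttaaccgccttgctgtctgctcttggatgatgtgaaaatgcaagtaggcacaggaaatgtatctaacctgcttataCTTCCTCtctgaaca

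Searched on both strands of the 250 bases before the start, GAGGAAG was in 4 of the 10 members, among them *Mrc1*, *Itgal* and *Csf1r*. It was in 10.3% of 21757 such windows of protein-coding genes. The match of *Mrc1* began 94 bases before the start and that of *Itgal* 15 bases before it. A match of 7 letters describes the sequence and shows no binding.

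In wild-type embryos the members were all weakly expressed. Per gene length, *Cd68*, a lysosomal glycoprotein, was highest at 2.72 ± 0.478 RPKM (CPM per kilobase of the listed gene length, SD, n = 4). *Mrc1* followed at 0.419 ± 0.204 RPKM and *Csf1r*, the receptor for CSF1 and IL34, at 0.345 ± 0.155 RPKM. Next in order of RPKM were *Tyrobp* (0.309 ± 0.241), an adaptor of activating receptors, and *Cx3cr1* (0.257 ± 0.199), the fractalkine receptor. *Fcgr3*, an IgG receptor, *C1qa*, a chain of complement C1q, *Itgal* and *Ptprc*, the leukocyte phosphatase CD45, lay between 0.0990 and 0.142 RPKM. *Adgre1* was last at 0.00688 ± 0.0138 RPKM, with 2 counts in 1 embryo and 0 counts in the other 3. With F4/80 mRNA absent from 3 of the 4 wild-type libraries, the name of the group rests on its other genes. Only the steps from *Cd68* to *Mrc1* and from *Ptprc* to *Adgre1* were larger than the SDs of the neighbours.

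In KAT6A-null embryos the same order began with *Cd68* (2.75 ± 0.658 RPKM), *Mrc1* (1.12 ± 0.397 RPKM) and *Csf1r* (0.822 ± 0.328 RPKM) and ended with *Adgre1* (0.146 ± 0.0788 RPKM). The distance between *Cd68* and the other members was smaller than in wild type, with *Cd68* at nearly the same level and the rest higher.

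The contrast that formed the group is described next. *Mrc1* was at 2.79, 1.27, 3.48 and 1.37 CPM in the 4 wild-type embryos and at 3.71, 4.87, 8.51 and 6.76 CPM in the 4 KAT6A-null embryos. All 4 null embryos were above all 4 controls, the males (8.51 and 6.76 CPM) further than the females. The ratio of the mean CPM was 2.68, and the fitted log2 fold change was 1.38 (SE 0.21). *Itgal* was at 0.740, 0.387, 0.580 and 0.892 CPM in wild type and at 0.940, 1.62, 2.13 and 1.47 CPM in the null embryos. These groups did not overlap either, but the lowest null embryo was only just above the highest control, and the fitted log2 fold change was 1.30 (SE 0.26).

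*Csf1r* was at 1.44, 0.939, 2.14 and 0.824 CPM in wild type and at 1.38, 3.49, 4.37 and 3.49 CPM in KAT6A-null embryos. Here 1 null female lay among the controls and the other 3 null embryos above them. *Cx3cr1* was at 1.00, 0.442, 2.01 and 0.412 CPM in wild type and at 1.83, 2.58, 2.48 and 3.83 CPM without KAT6A, so that 1 wild-type female exceeded the lowest null embryo. *Ptprc* showed the same kind of overlap, with 0.276 to 0.759 CPM in wild type and 0.609 to 1.42 CPM in null embryos. The fitted log2 fold changes were 1.24 for *Csf1r* (SE 0.25), 1.54 for *Cx3cr1* (SE 0.40) and 1.12 for *Ptprc* (SE 0.28).

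*Adgre1* had 0, 0, 2 and 0 counts in the wild-type embryos and 4, 15, 14 and 16 counts in the KAT6A-null embryos. In the 8 embryos with the transgene it had at most 3 counts, and it failed the filter on low counts, as did *Tyrobp*, so neither has a fitted value. *C1qa* had 2, 2, 6 and 2 counts in wild type and 7, 29, 8 and 25 counts in null embryos, with a fitted log2 fold change of 2.30 (SE 0.53). *Fcgr3* ran from 0.206 to 0.387 CPM in wild type and from 0.553 to 1.42 CPM in null embryos, with a fitted log2 fold change of 1.66 (SE 0.36). For *Adgre1*, *C1qa* and *Fcgr3* the groups did not overlap.

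*Tyrobp* was at 0.305, 0, 0.268 and 0.137 CPM in wild type and at 0.277, 0.365, 0.295 and 0.705 CPM without KAT6A, and its groups overlapped. *Cd68* was the exception among the members, at 2.61, 3.53, 3.35 and 4.05 CPM in wild type and 4.37, 3.83, 2.95 and 2.56 CPM in null embryos. Its ranges were nearly the same, and its fitted log2 fold change was 0.01 (SE 0.20). In all, 5 of the 10 members, among them *Mrc1* and *Itgal*, had null embryos entirely above the controls. In this direction 3.96% of all genes tested showed that pattern, and *Adgre1* was not among the genes tested. The choice of the group fixes this count of 5 in part, so it supports nothing. Of the 8 members kept by the filter, 6 were past the threshold of an adjusted p under 0.05 against 1.88% of all genes, a count that the choice of the group fixes in part and that supports nothing.

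**Figure D1:**
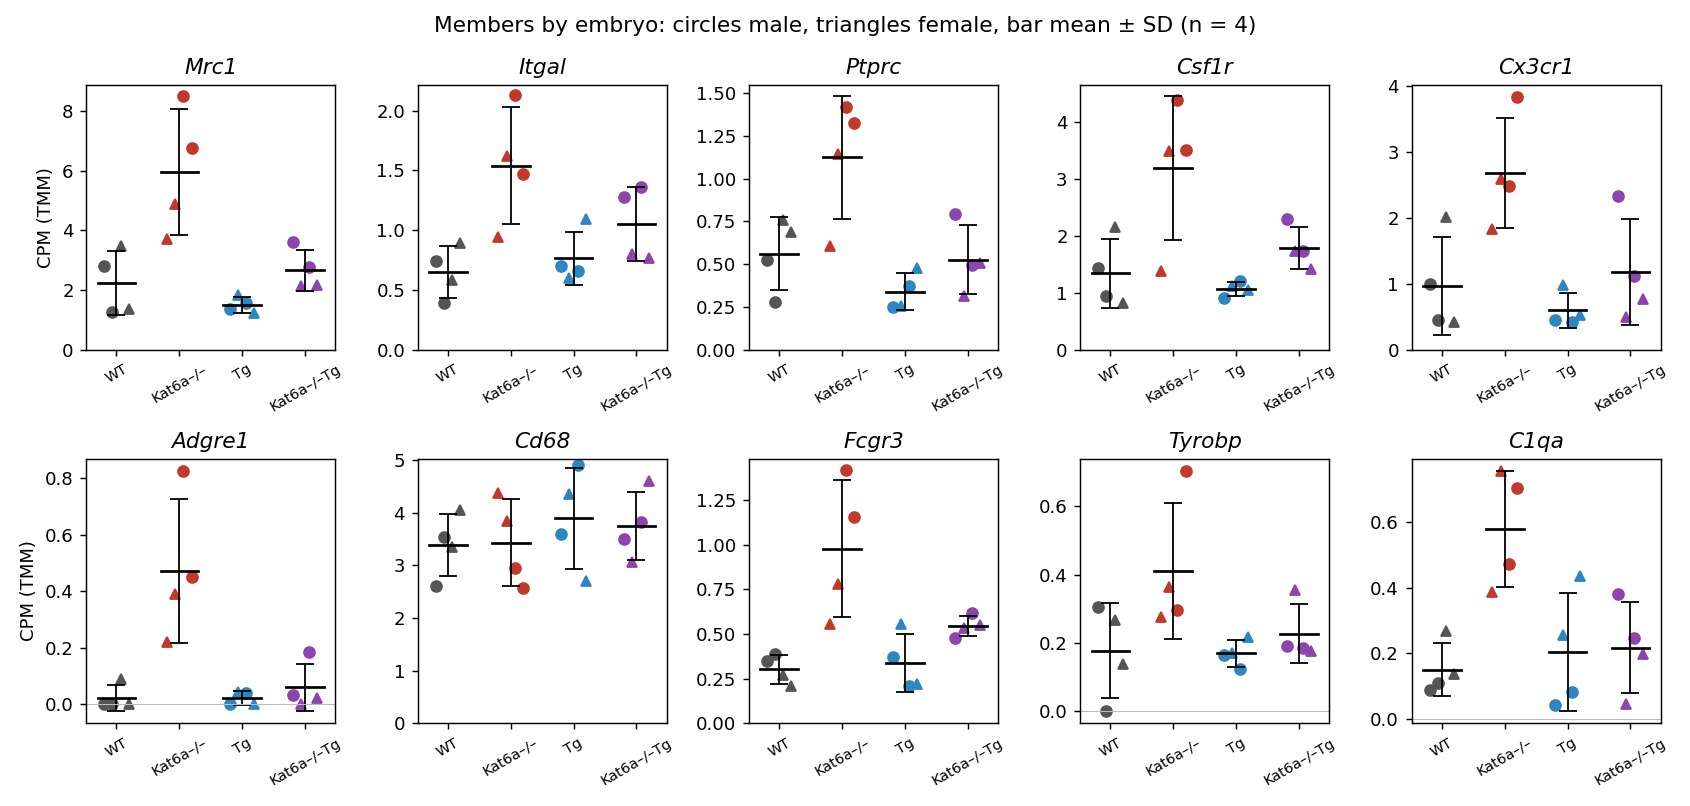
CPM of each of the 10 members (vertical axes, one scale per gene) in the 16 embryos by genotype (WT, Kat6a–/–Kat6b+/+ as Kat6a–/–, Kat6a+/+Tg(Kat6b) as Tg, Kat6a–/–Tg(Kat6b) as Kat6a–/–Tg), with circles for males, triangles for females and bars for the mean ± SD of 4 embryos. The mean of the Kat6a–/– embryos is the highest for every member but Cd68, whose 4 groups overlap, and Mrc1 reaches 8.51 CPM in a Kat6a–/– male.

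Within litters the difference could be taken only against 1 control embryo each. In litter 801, with 2 null females and 1 wild-type male, the 9 members with counts in the control were all higher in the null embryos, with a median ratio of 1.70. In litter 803, with 2 null males and 1 wild-type male, 7 of the 8 members with counts in the control were higher and *Cd68* was lower, with a median ratio of 4.81. For *Mrc1* the ratio was 1.54 in litter 801 and 6.01 in litter 803. Within sex, the null females were higher for 10 of 10 members (median ratio 1.75) and the null males for 8 of the 9 with counts in the control males (median ratio 3.43). Sex and litter coincide among the null embryos, so these cannot be told apart.

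The comparison of null transgenic with transgenic embryos asks what the loss of KAT6A does when KAT6B is in excess, and it shares no embryo with the contrast that formed the group. The wild-type and KAT6A-null embryos still entered its fit, through the filter, the spread and the surrogate variables (covariates estimated from the expression data). In a fit of only these 2 genotypes, without surrogate variables, 7 members were tested and 0 were called. *Mrc1* and *Csf1r* rose without KAT6A here too, and no member tested fell. *Mrc1* was at 1.36, 1.83, 1.57 and 1.22 CPM in transgenic and at 3.60, 2.13, 2.77 and 2.15 CPM in null transgenic embryos. All 4 embryos without KAT6A were above all 4 with it, and the males again reached furthest. The ratio of the means was 1.78, and the fitted log2 fold change was 1.15 (SE 0.26, edgeR adjusted p = 0.0201).

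*Csf1r* was at 0.909, 1.11, 1.20 and 1.05 CPM with KAT6A and at 2.29, 1.73, 1.73 and 1.41 CPM without it. These groups did not overlap, and the 4 transgenic embryos were close together. Their coefficient of variation (SD over mean) was 11.3%, where counting alone gives 20.004%. The closeness was thus tighter than counting allows on average and shows no low spread between embryos. The lack of overlap depends in part on it. The ratio of the means was 1.68, and the fitted log2 fold change was 1.07 (SE 0.30, edgeR adjusted p = 0.0475). The exon bases of *Csf1r* overlap those of *Hmgxb3* on the opposite strand over 19.8% of their length in the annotation, and the strand setting of the counting is not given in the sources used here. *Hmgxb3* had a fitted log2 fold change of 0.08 in this comparison (edgeR adjusted p = 0.376).

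Both calls depended on the surrogate variables. Without surrogate variables, 2 of which entered the fit, the fitted log2 fold change was 0.83 for *Mrc1* (edgeR adjusted p = 0.187) and 0.74 for *Csf1r* (edgeR adjusted p = 0.218), and with 1 of them it was 0.81 and 0.73. The first surrogate variable separated the sexes, from -0.28 to -0.22 in males and from 0.18 to 0.30 in females. The second surrogate variable lay between -0.41 and 0.03 in null transgenic and between -0.16 and 0.26 in transgenic embryos, and its source was not tested. Leaving out any 1 embryo kept the *Mrc1* value between 0.95 and 1.33 and its call in 12 of 16 fits, and the *Csf1r* value between 0.90 and 1.23 and its call in 2 of 16. The *Mrc1* call was lost without transgenic embryo 1 or 3 or without null transgenic embryo 1 or 4 (highest edgeR adjusted p = 0.0818).

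**Figure D2:**
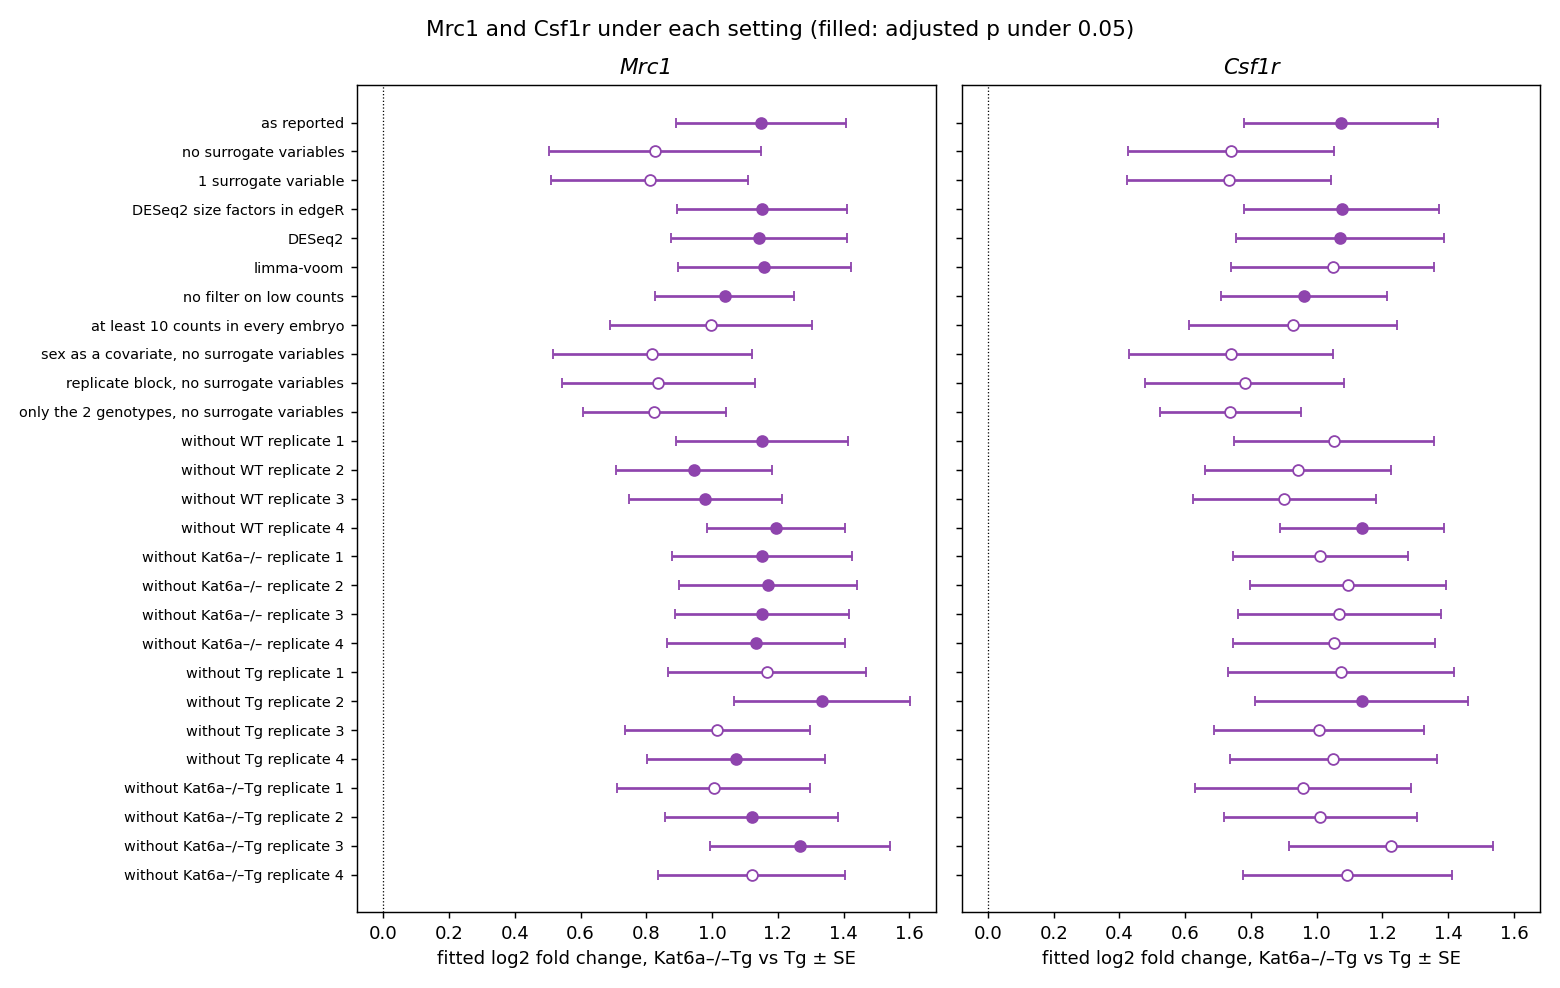
Fitted log2 fold change ± SE of Mrc1 (left) and Csf1r (right) in Kat6a–/–Tg(Kat6b) vs. Kat6a+/+Tg(Kat6b) embryos (horizontal axes) under each setting of the test (rows), filled where the adjusted p was under 0.05. Every value is above 0, from 0.81 to 1.33 for Mrc1, and the open points show the settings without the call.

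The other members were less clear. *Ptprc* was at 0.248, 0.256, 0.371 and 0.480 CPM in transgenic and at 0.795, 0.311, 0.493 and 0.505 CPM in null transgenic embryos, with a fitted log2 fold change of 1.21 (SE 0.35, edgeR adjusted p = 0.0622). *Itgal* was at 0.702, 0.597, 0.660 and 1.09 CPM with KAT6A and at 1.27, 0.80, 1.36 and 0.769 CPM without it, with a value of 0.81 (SE 0.29, edgeR adjusted p = 0.128). For *Itgal* the 2 males without KAT6A were highest and the 2 females lay among the other genotype, so the gene that helped to form the group did not pass the test in these embryos.

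*Cx3cr1* was at 0.454, 0.981, 0.412 and 0.524 CPM with KAT6A and at 2.32, 0.489, 1.11 and 0.769 CPM without it, with a fitted log2 fold change of 1.47 (SE 0.50, edgeR adjusted p = 0.120). Without null transgenic embryo 1, the male at 2.32 CPM, the value was 0.78, the lowest when any 1 embryo was left out. The highest was 1.88, without transgenic embryo 2, where the gene passed the test (edgeR adjusted p = 0.0433), as it did without wild-type embryo 4 (edgeR adjusted p = 0.0354) and by DESeq2 (adjusted p = 0.0452).

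*Fcgr3* was at 0.372, 0.554, 0.206 and 0.218 CPM with KAT6A and at 0.477, 0.533, 0.617 and 0.549 CPM without it, with a fitted log2 fold change of 0.60 (SE 0.41, edgeR adjusted p = 0.464). One transgenic female lay among the null transgenic embryos, and the other 3 transgenic embryos were below them. *C1qa* had 1, 6, 2 and 10 counts with KAT6A and 12, 1, 4 and 9 counts without it. Its groups overlapped fully, its ratio of mean CPM was 1.07, and its fitted log2 fold change of 1.03 had an SE of 0.64 (edgeR adjusted p = 0.404). *Tyrobp* was at 0.165, 0.171, 0.124 and 0.218 CPM against 0.191, 0.356, 0.185 and 0.176 CPM, with overlap. *Cd68* was at 3.59, 4.35, 4.91 and 2.71 CPM against 3.4997, 3.07, 3.82 and 4.59 CPM, with a value of -0.06 (SE 0.21, edgeR adjusted p = 0.914). *Adgre1* had 0, 1, 1 and 0 counts with KAT6A and 1, 0, 3 and 1 counts without it, which at this depth cannot show a difference.

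Thus 2 of the 8 members tested rose in null transgenic vs. transgenic embryos, where 2.28% of all genes tested rose and 3.41% changed. A further 5 had fitted values above 0 without passing the test. The median fitted log2 fold change of the 8 was 1.05, beside -0.008 over all genes tested, and without surrogate variables it was 0.67. *C1qa* was among the 8 only because the filter took in the KAT6A-null embryos, where it was highest. In the fit of only these 2 genotypes it failed the filter, and the median of the 7 members tested was 0.67. Of all 10 members, 2 had groups that did not overlap, both higher, against 6.09% of all genes. Two-sided exact permutation tests on log2(CPM + 0.1) gave an unadjusted p = 0.0286 for *Mrc1* and *Csf1r*, the smallest p that 4 embryos against 4 allow, and from 0.114 to 0.886 for the other 8. The permutation treats embryos as independent. Most null transgenic embryos came from litter 483 and most transgenic ones from litter 2597, and no litter held both genotypes. Neither this test nor the lack of overlap can therefore separate genotype from litter.

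Within sex, the males without KAT6A were higher than the males with it for 9 of 10 members, with a median ratio of 2.01. The females were higher for 6 of 10 members, with a median ratio of 1.10. For *Mrc1* the ratio was 2.17 in males and 1.40 in females, and for *Csf1r* it was 1.91 and 1.46. Each of these ratios compares 2 embryos with 2, and the difference between the sexes was not tested.

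**Figure D3:**
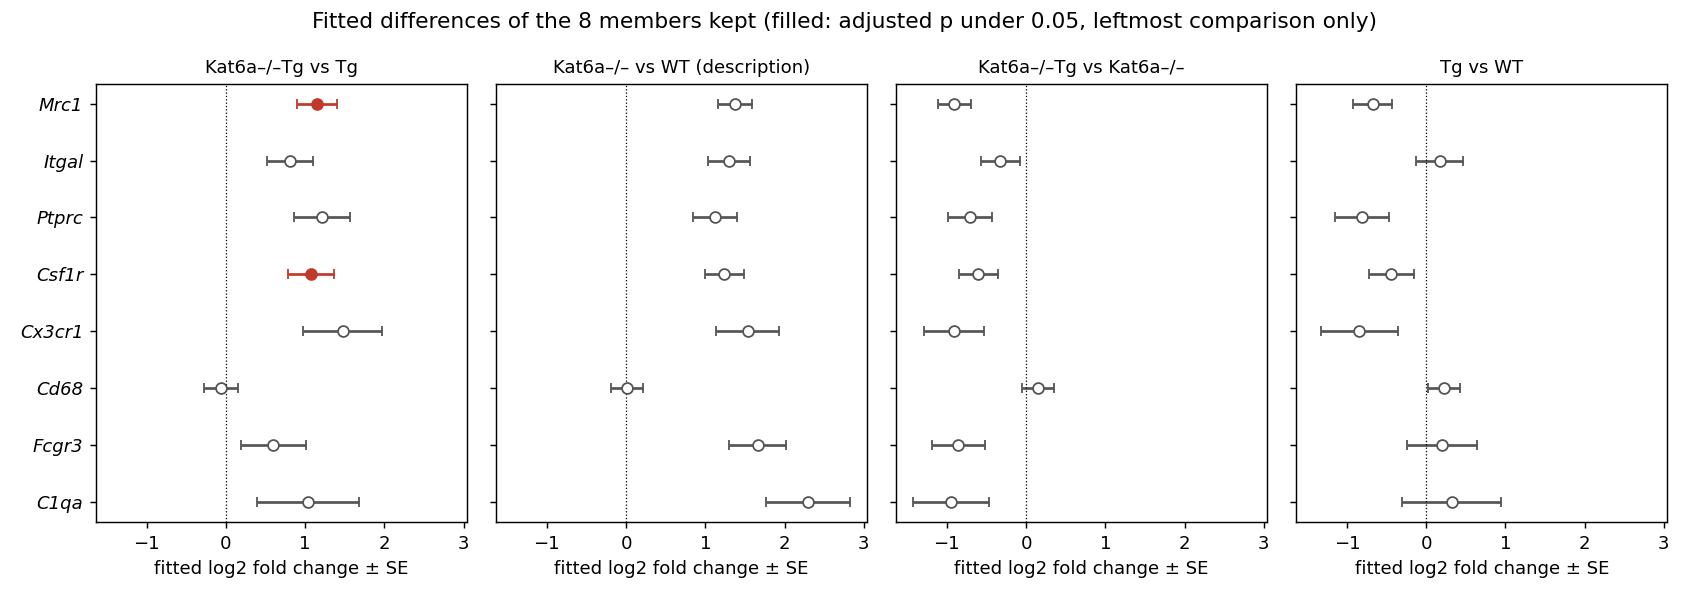
Fitted log2 fold change ± SE (horizontal axes) of the 8 members kept by the filter (rows) in 4 comparisons, with filled points for an adjusted p under 0.05 in Kat6a–/–Tg(Kat6b) vs. Kat6a+/+Tg(Kat6b), the comparison that shares no embryo with the choice of genes. Members other than Cd68 lie right of 0 in both comparisons of embryos without KAT6A with embryos that have it, with Mrc1 at 1.15 and 1.38, and left of 0 in Kat6a–/–Tg(Kat6b) vs. Kat6a–/–Kat6b+/+.

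In null transgenic vs. KAT6A-null embryos, which differ by the transgene and share no litter, the mean CPM of every member but *Cd68* was lower in the former. In this comparison transgene and litter cannot be told apart. These embryos share the null group with the choice of *Mrc1* and *Itgal*, so those 2 are described only. *Mrc1* lay between 2.13 and 3.60 CPM with the transgene and between 3.71 and 8.51 CPM without it, a ratio of 0.447. *Itgal* had a ratio of 0.683 and its groups overlapped. None of the other 6 members tested passed the threshold by edgeR, DESeq2 or limma-voom, where 7.14% of all genes passed it by edgeR. By edgeR 4 of the 6 had an unadjusted p under 0.05, a looser rule for which no share of all genes is given.

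The fitted log2 fold changes of those 4 were -0.71 for *Ptprc* (edgeR adjusted p = 0.121), -0.61 for *Csf1r* (edgeR adjusted p = 0.139), -0.91 for *Cx3cr1* (edgeR adjusted p = 0.168) and -0.86 for *Fcgr3* (edgeR adjusted p = 0.121). Without KAT6A-null embryo 1, the null female whose *Csf1r* lay among the controls, *Csf1r* was at -0.90 and passed (edgeR adjusted p = 0.0323). Without null transgenic embryo 1, the highest of its group for *Cx3cr1*, *Cx3cr1* was at -1.53 and passed (edgeR adjusted p = 0.0467). Each of these genes passed in 1 of the 16 fits that left out 1 embryo. The embryo left out was the one nearest the other genotype, so a wider difference was fixed in advance. The members were also chosen with earlier results known, and these passes support nothing. *Adgre1* had 49 counts over the 4 KAT6A-null embryos and 5 over the 4 null transgenic ones, and its groups did not overlap, as for *C1qa* and *Mrc1*. These are 3 of 10 members, where 7.94% of all genes tested lay entirely lower. *Mrc1* was chosen by the same null embryos and *Adgre1* was not among the genes tested, so this count supports nothing. For *C1qa* the lowest null embryo was at 0.387 CPM and the highest null transgenic embryo at 0.382 CPM. Within sex, females were lower with the transgene for 10 of 10 members and males for 9 of 10.

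Against wild type, null transgenic embryos showed no member past the threshold among the 6 tested by edgeR, DESeq2 or limma-voom, where 0.67% of all genes changed, and 1 of the 6 had an unadjusted p under 0.05 by edgeR. All 8 fitted values were above 0, with a median of 0.63, but without surrogate variables that median was 0.29 and *Ptprc* was below 0. *Fcgr3* alone had groups that did not overlap, with 0.206 to 0.387 CPM in wild type and 0.477 to 0.617 CPM in null transgenic embryos (fitted log2 fold change 0.80, edgeR adjusted p = 0.425), where 3.42% of all genes lay entirely higher. *Mrc1* had a ratio of 1.20 and *Itgal* of 1.61. A p that misses the threshold does not show that the genotypes were alike: the SE of *Csf1r* here was 0.28 around a value of 0.64.

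The coding sequences of *Fcgr3* and its neighbour *Fcgr2b* are 96.5% identical over 509 aligned bases, so reads could be split between them. The stretch of 150 coding bases below, with the mismatch in capitals, is shown because a 66-base read that misses the capital fits both genes, and 7.97% of the 66-base windows of *Fcgr3* do.

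Fcgr3: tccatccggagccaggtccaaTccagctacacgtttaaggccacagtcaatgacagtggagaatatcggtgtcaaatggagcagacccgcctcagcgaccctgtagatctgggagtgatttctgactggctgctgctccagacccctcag
Fcgr2b: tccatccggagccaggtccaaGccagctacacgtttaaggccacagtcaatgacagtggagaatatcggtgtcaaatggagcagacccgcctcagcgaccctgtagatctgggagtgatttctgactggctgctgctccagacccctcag

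*Fcgr2b* itself had between 0 and 7 counts in every embryo, with 13 over the 4 KAT6A-null embryos against 105 on *Fcgr3*. Of the 66-base windows of *Csf1r*, 22.6% matched another gene on either strand, *Hmgxb3* among them. Apart from *Csf1r*, *Fcgr3* and 1 window of *Cx3cr1*, no member shared a 66-base window of its transcript with another gene.

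The transgene with KAT6A present, transgenic vs. wild-type, gave no call among the 6 members tested by edgeR, DESeq2 or limma-voom. At the same threshold 0.14% of all genes were called by edgeR. By the looser rule of an unadjusted p under 0.05, edgeR gave 1 of the 6. *Ptprc* had the lowest unadjusted p, with 0.248 to 0.480 CPM against 0.276 to 0.759 CPM and a fitted log2 fold change of -0.81 (edgeR adjusted p = 0.342). *Mrc1* had a ratio of 0.672 and *Itgal* of 1.17, and the groups of all 10 members overlapped, where 4.0% of all genes had groups that did not. The difference between the effects of KAT6A loss with and without the transgene, an interaction, was called for 0 of the 6 members by edgeR, with 0 at an unadjusted p under 0.05, where 0.153% of all genes were called, so this design does not show that the loss acts differently in the 2 settings.

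Ligands of the members showed small differences in mean CPM between genotypes. *Csf1*, the ligand of CSF1R, was at 9.88 ± 0.809 CPM in wild type and 11.1 ± 1.01 CPM in KAT6A-null embryos, while *Il34*, its other ligand, had at most 6 counts in any embryo. *Cx3cl1*, the ligand of CX3CR1, was at 9.49 ± 0.792 and 8.59 ± 0.907 CPM. *Icam1* and *Icam2*, which LFA-1 binds, were at 4.77 ± 0.427 and 8.29 ± 0.499 CPM in wild type. Of the 12 ligands and partners, 8 passed the filter and 0 were called in null transgenic vs. transgenic embryos by edgeR, DESeq2 or limma-voom, with 1 at an unadjusted p under 0.05 by each.

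*Itgb2*, the beta chain with which the product of *Itgal* pairs, was at 0.392, 0.166, 0.580 and 0.343 CPM in wild type and at 0.664, 0.626, 0.591 and 0.761 CPM in KAT6A-null embryos, which did not overlap. *C1qb* and *C1qc*, the partner chains of *C1qa*, were at 0.391 ± 0.320 and 0.285 ± 0.208 CPM in wild type and at 1.42 ± 0.597 and 1.09 ± 0.452 CPM without KAT6A. Both were lower in null transgenic than in KAT6A-null embryos, by 1.42 (edgeR adjusted p = 0.0351) and 1.56 (edgeR adjusted p = 0.0466) on the log2 scale. Both were listed with earlier results known and passed the filter through the KAT6A-null embryos, where they were highest. A fall from that group was thus favoured in advance, and these 2 calls are given as a description. DESeq2 gave neither an adjusted p, by limma-voom the adjusted p was 0.0183 for *C1qb* and 0.0544 for *C1qc*, and neither gene was kept with at least 10 counts in every embryo. When 1 embryo was left out *C1qb* passed in 13 of 16 fits and *C1qc* in 6, and neither passed without KAT6A-null embryo 4 or without null transgenic embryo 2 or 3. *Trem2*, which signals through the product of *Tyrobp*, had 0, 0, 2 and 0 counts in wild type and 0, 2, 5 and 9 in null embryos.

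Beyond the members, 30 other macrophage genes were listed, of which 16 passed the filter, and 23 general leukocyte genes, of which 20 did. In null transgenic vs. transgenic embryos, 3 of the 16 macrophage genes and 1 of the 20 leukocyte genes rose and none fell, beside 2.28% of all genes that rose. They were *Spi1*, which encodes PU.1 (log2 fold change 1.48, edgeR adjusted p = 0.0413), *Laptm5*, a lysosomal protein of blood cells (0.61, edgeR adjusted p = 0.0217), *Stab1*, a scavenger receptor of macrophages and endothelium (0.33, edgeR adjusted p = 0.00306), and *Lcp1*, a leukocyte actin bundler (0.24, edgeR adjusted p = 0.0463). The median log2 fold change was 0.28 over the macrophage list and 0.17 over the leukocyte list, against -0.008 over all genes. Without surrogate variables these medians were -0.003 and 0.14, and of the 4 genes *Stab1* alone passed (edgeR adjusted p = 0.00591). When 1 embryo was left out *Stab1* passed in 16 of 16 fits, *Laptm5* in 13, *Spi1* in 5 and *Lcp1* in 2.

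Of the 10 endothelial genes, 3 rose in the same comparison, namely *Stab2*, a scavenger receptor of sinusoidal endothelium (log2 fold change 1.13, edgeR adjusted p = 0.0105), *Cdh5*, vascular cadherin (0.23, edgeR adjusted p = 0.00900) and the receptor *Tie1* (0.22, edgeR adjusted p = 0.0367). The summed CPM of the 10 endothelial genes lay between 420 and 458 in null transgenic and between 373 and 410 in transgenic embryos, without overlap. The summed CPM of 8 erythroid genes was lower, between 3324 and 4023 against between 4241 and 5283. The part of these cell types in the members' values was not tested. The 2 relatives of *Mrc1* in its receptor family that were called, *Pla2r1* and *Ly75*, rose by log2 fold changes of 0.67 (edgeR adjusted p = 0.0212) and 0.32 (edgeR adjusted p = 0.0260). *Itgb3*, an integrin chain of megakaryocytes, rose by 0.45 (edgeR adjusted p = 0.0108). Of these 6 genes, *Cdh5* and *Ly75* also passed without surrogate variables (edgeR adjusted p = 0.0127 and 0.0122). *Itgb3* was the only 1 of the 6 megakaryocyte genes listed with a fitted value above 0 (median log2 fold change -0.061).

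Between null transgenic and KAT6A-null embryos, which share no litter, 5 of the 16 macrophage genes were called, 3 higher and 2 lower in the former. Of the 20 leukocyte genes 2 were called, both lower, beside 3.39% of all genes higher and 3.74% lower. *Laptm5* (log2 fold change -0.54, edgeR adjusted p = 0.0119) and *F13a1*, coagulation factor XIII (-1.14, edgeR adjusted p = 0.0423), fell together with *Rac2*, a GTPase of blood cells (-0.95, edgeR adjusted p = 0.0194), and *Ptpn6*, a leukocyte phosphatase (-0.45, edgeR adjusted p = 0.0195). *Laptm5* and *F13a1* had their highest mean CPM in KAT6A-null embryos (10.6 and 1.87). The lists were chosen with earlier results known, so falls from that group were favoured in advance and are given as a description. *Mertk*, *Dab2* and *Csf2ra*, which are not limited to macrophages, rose by log2 fold changes of 0.41 (edgeR adjusted p = 0.0297), 0.26 (edgeR adjusted p = 0.00267) and 0.51 (edgeR adjusted p = 0.0489). Outside these lists *Kit*, the receptor of blood progenitors, rose by 0.40 (edgeR adjusted p = 0.000504) and *Itgb3* by 0.30 (edgeR adjusted p = 0.0350) on the log2 scale. Without surrogate variables *Csf2ra* (edgeR adjusted p = 0.223), *Mertk* (edgeR adjusted p = 0.222), *Ptpn6* (edgeR adjusted p = 0.0663) and *Itgb3* (edgeR adjusted p = 0.221) did not pass, and the other 5 genes did. Here too *Itgb3* was the only 1 of the 6 megakaryocyte genes listed with a fitted value above 0 (median log2 fold change -0.12). *Dab2* is named here beyond the rule for named genes, after its value was seen. Against wild type, *Dab2* rose by 0.21 in null transgenic embryos (edgeR adjusted p = 0.0472), the 1 macrophage gene of 16 that was called, and *Meox1*, a gene of somite tissue, fell by 0.19 (edgeR adjusted p = 0.0239). Neither passed without surrogate variables (edgeR adjusted p = 0.277 and 0.632), and when 1 embryo was left out *Dab2* passed in 6 of 16 fits and *Meox1* in 10. Between transgenic and wild-type embryos none of the macrophage and leukocyte genes was called by edgeR, DESeq2 or limma-voom, and 4 had an unadjusted p under 0.05 by edgeR.

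Markers of other tissues that a dissected embryo can carry were summed in the same way. The summed CPM of 7 yolk sac endoderm genes lay between 10.0 and 18.0 in KAT6A-null, between 15.4 and 56.1 in wild-type, between 5.36 and 50.02 in transgenic and between 41.1 and 53.4 in null transgenic embryos. The summed CPM of 6 blood progenitor genes lay between 125 and 133 in KAT6A-null and between 127 and 143 in wild-type embryos. Genes of decidua and trophoblast summed to between 0.495 and 1.28 CPM in every embryo, and 3 of those 7 genes had 0 counts in all 16. The part of attached yolk sac in the members' values was not tested.

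Over the 16 embryos most members varied together. The log2 CPM of each of 9 members correlated with the mean of the others at a Pearson r between 0.63 (*Tyrobp*) and 0.94 (*Mrc1*), while *Cd68* had an r of -0.34. As deviations from the genotype means the r fell to between 0.19 (*Fcgr3*) and 0.84 (*Mrc1*), with *Cd68* at -0.44. These are descriptions over embryos that share genotype, litter and depth. Within genotypes the spread was partly that of counting. For *Mrc1* in wild type the coefficient of variation between embryos was 48.7% where counting alone gives 17.5%. For *Ptprc* in wild type it was 38.2% where counting gives 33.2%. In some groups it was below that of counting, as for *Csf1r* in transgenic embryos (11.3% where counting gives 20.004%).

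The genes most like the members over the 16 embryos, by the correlation of their log2 CPM with the mean standardised value of the 10, were *Laptm5* (r = 0.96), *Wdr6* (r = 0.92), *F13a1* (r = 0.89), *C1qb* (r = 0.89), *Pon3* (r = 0.88), *C530005A16Rik* (r = 0.87), *Chl1* (r = 0.87), *Ptpn7* (r = 0.87), *Rcbtb2* (r = 0.86) and *Cyth4* (r = 0.86). *Laptm5*, *F13a1*, *C1qb* and *Cyth4* were on the lists above. *Laptm5* was at 5.19 ± 1.06 CPM in wild type, 10.6 ± 1.37 CPM in KAT6A-null, 5.06 ± 0.616 CPM in transgenic and 6.76 ± 1.17 CPM in null transgenic embryos. *Wdr6* followed the same order over a narrow range, from 339 ± 4.64 to 372 ± 14.6 CPM. Ranked by deviations from the genotype means, none of these 10 genes stayed among the first 10, whose last had an r of 0.88. Their own r by deviations ran from 0.34 (*Cyth4*) to 0.83 (*C1qb*).

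**Figure D4:**
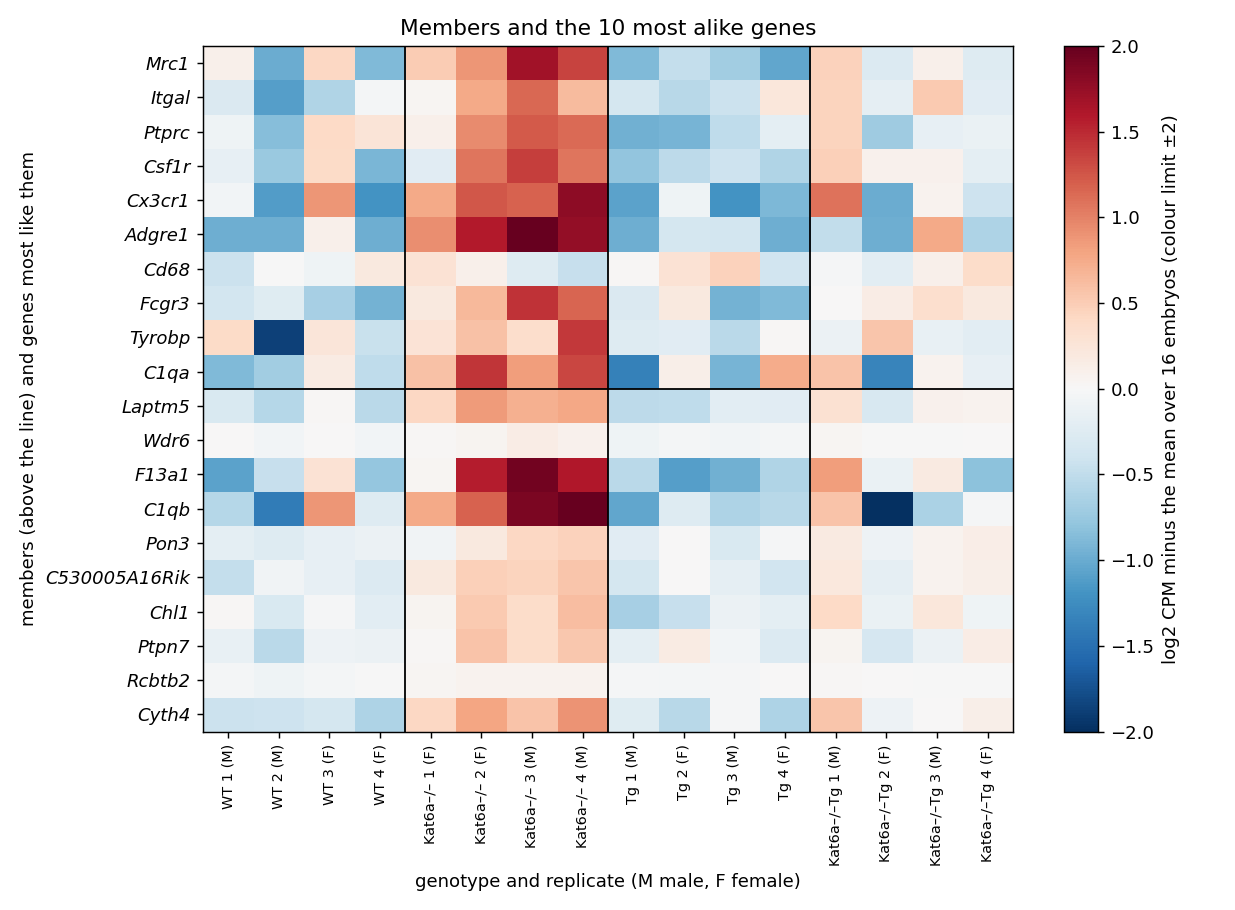
Log2 CPM minus the mean over 16 embryos (colour, limited to ±2) for the 10 members and the 10 genes most like them (rows) in each embryo (columns, by genotype, replicate and sex). The 4 Kat6a–/– columns are mostly red for the members other than Cd68, palest in the first female, and Laptm5 (r = 0.96) has the same pattern.

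Summed over the members other than *Cd68*, the 4 wild-type embryos had 7.23, 3.81, 9.87 and 4.67 CPM, and the KAT6A-null embryos 9.90, 16.003, 21.9 and 19.9 CPM. The transgenic embryos had 4.25, 5.80, 4.66 and 5.24 CPM, and the null transgenic embryos 11.4, 6.40, 8.69 and 6.55 CPM. The first null female and 1 wild-type female were close to each other, and the 4 null transgenic embryos lay above the 4 transgenic ones. Leaving out *Cd68*, whose values in these embryos did not follow the other members, favoured that separation, so it supports nothing. With *Cd68* included the sums were 14.9, 9.47, 12.5 and 11.1 CPM in null transgenic and 7.85, 10.1, 9.56 and 7.95 CPM in transgenic embryos, which overlapped. Within embryos the log2 ratio of *Mrc1* to *Csf1r* counts was 0.69 ± 0.21 (SD, n = 4) in wild type, 0.95 ± 0.38 in KAT6A-null, 0.47 ± 0.22 in transgenic and 0.56 ± 0.18 in null transgenic embryos, and the ranges of the 4 genotypes overlapped. The log2 ratio of *Itgal* to *Ptprc* counts was 0.23 ± 0.41 in wild type and 0.45 ± 0.21 in KAT6A-null embryos, and 1.13 ± 0.26 in transgenic and 0.99 ± 0.42 in null transgenic embryos. For this pair of genes the wild-type and transgenic ranges did not overlap, a pattern noticed in the data and not tested.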

How the data were processed

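Paired reads of 66 bases were sequenced from the RNA of single embryos (E9.5). The authors aligned the reads to mm39 with Rsubread and deposited, per embryo, unnormalized counts on 26411 genes with gene lengths. The submitters' processing notes also name featureCounts and bcl2fastq. The annotation, the strand setting and the handling of reads shared between genes are not given in the sources used here.

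In R 4.3.3, edgeR 4.0.16 kept 15679 genes (filterByExpr, minimum count 10, minimum total 15), scaled the libraries by TMM and fitted quasi-likelihood models (robust) to the 16 embryos together, with 2 surrogate variables from sva 3.50.0 (genotype protected, log2 CPM with a prior count of 2). The p-values were adjusted over all kept genes by the Benjamini-Hochberg method, with 0.05 as the threshold. DESeq2 1.42.0, limma-voom (limma 3.58.1), other filters and covariates and leaving out each embryo were alternatives. The edgeR, DESeq2 and limma-voom tests of null transgenic vs. transgenic embryos were tried beforehand on simulated independent embryos without litters. The permutation test and the other contrasts were not. Replicates are separate embryos, but many shared a litter.

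The members and lists were chosen with earlier results of these data known. Genes named were the members, their ligands and partners, at most 10 list genes per contrast that passed the threshold, largest change first and the contrast of the choice left out, and the 10 genes most like the members with a mean of at least 10 counts per embryo. Upstream sequences and transcripts came from GENCODE on GRCm39. The sequence before the start of 1 further member is not reported here.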

Additional observations from a re-analysis of the deposited data

Results flagged for a closer look

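In 2 of 40 groups of 4 embryos, 1 per member and genotype, 1 embryo lay far from the other 3. Chance flags about 1 in 20 groups where values are normally distributed, which counts near 0 are not. A group with counts in 1 embryo only, as for *Adgre1* here, is always flagged. *Adgre1* was at 0.0893 CPM, from 2 counts, in wild-type embryo 3 and at 0 in the other 3 wild-type embryos. *Tyrobp* was at 0.356 CPM in null transgenic embryo 2, a female, and between 0.176 and 0.191 CPM in the other 3 null transgenic embryos.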

How the results depend on the processing

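In null transgenic vs. transgenic embryos the 2 calls among the members became 0 without surrogate variables, with 1 of them, with at least 10 counts in every embryo (which leaves 3 members), with sex as a covariate, with a replicate block and with only the 2 genotypes. They became 1 by limma-voom and 0 to 3 when 1 embryo was left out. The 4 calls among the other macrophage and leukocyte genes and partners became 1 without surrogate variables, with 1 of them, with sex, with the replicate block and with only the 2 genotypes, 2 with at least 10 counts, and 1 to 4 when 1 embryo was left out. For the transgene in the null state the 6 members other than *Mrc1* and *Itgal* had 0 calls, or 0 to 1 when 1 embryo was left out. The 9 calls of the other genes became 0 with at least 10 counts and 3 to 9 when 1 embryo was left out. The 6 members, of all 8 kept, past the threshold in KAT6A-null vs. wild-type embryos became 2 without surrogate variables, with 1, with at least 10 counts or with sex, 1 with the replicate block, 0 with a litter block or only the 2 genotypes, and 2 to 7 when 1 embryo was left out. Of the 10 genes most like the members, 0 remained when deviations from the genotype means were ranked.

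Signs turned for few values. Against wild type in null transgenic embryos, *Ptprc* was at -0.060 without surrogate variables, -0.056 with 1, -0.062 with sex, -0.057 with only the 2 genotypes and -0.045 with the replicate block, and *Cx3cr1* ran from -0.014 to 1.06 when 1 embryo was left out. Likewise *Cd68* ran from -0.21 to 0.093 in null transgenic vs. transgenic embryos. In transgenic vs. wild-type embryos *Fcgr3* ran from -0.21 to 0.44 and *C1qa* from -0.20 to 0.65, with -0.075 by limma-voom. *Cd68* was at -0.21 in null transgenic vs. KAT6A-null embryos with at least 10 counts. Replicate numbers did not pair the embryos: the deviations of same-numbered embryos correlated between -0.255 and 0.215, and 4 of 16 embryos correlated best with their own number. A litter block could not be fitted for null transgenic embryos. Counts of 0 to 16 per embryo limit *Adgre1* and counts of 1 to 29 limit *C1qa*. Apart from these, the cause of each change was not tested.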
